A study of Mus musculus with 39 samples.

Results

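The 39 genes described here encode nucleolar proteins that transcribe ribosomal RNA (rRNA) or process it into ribosomal subunits. They were taken by symbol from a list of ribosome biogenesis factors, with no measured value in the rule, and all 39 were found among the genes of both deposited tables and passed the filter on low values. They stand among 11553 tested genes in wild-type (WT) N2a cells and 11852 in N2a cells that stably express the red fluorescent protein tdTomato. N2a is a mouse neuroblastoma line. All cells received plasmids for the RNA-guided ribonuclease RfxCas13d and a crRNA, and poly(A)-enriched RNA was collected 48 h later in 39 libraries. In WT cells, 3 libraries each were made with Sik3 crRNA 1, Sik3 crRNA 8, Map2 crRNA 1, Map2 crRNA 3, Mapt crRNA 4, Mapt crRNA 6, Rbfox3 crRNA 3 and Rbfox3 crRNA 5, and 6 with a non-targeting (NT) crRNA. The library names place NT replicates 1, 2 and 6 with 7 of these crRNAs (the WT set) and NT replicates 3, 4 and 5 with Rbfox3 crRNA 5 (the N set), and comparisons were made within a set. In the tdTomato-expressing line, 3 libraries each were made with tdTomato crRNA 4, tdTomato crRNA 7 and the NT crRNA. Every group, NT included, therefore carries RfxCas13d, no group without it was analysed here, and the labels do not say that replicates were separate cultures, so p-values measure only the spread between these libraries. The question behind the comparisons was what a targeting crRNA does to RNAs other than its target.

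Ribosome biogenesis starts in the nucleolus, where RNA polymerase I, with its factors UBF (encoded by Ubtf) and TIF-IA (Rrn3), transcribes the rRNA precursor. Small nucleolar RNPs of the box C/D and box H/ACA classes methylate and pseudouridylate the precursor, the small subunit processome folds and cleaves the part that becomes the small subunit, and a further group of factors, among them the PeBoW complex of Pes1, Bop1 and Wdr12, assembles the large subunit. The transcription factor Myc is known for activating many genes of this pathway, and it binds the E-box sequence CACGTG. The mRNAs of these factors were measured here, not rRNA, which poly(A) enrichment leaves out, and not the proteins.

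The promoters of Imp4, Nhp2 and Utp4, which fell, and of Imp3, which rose, are shown from the RefSeq promoter table (build GRCm38.p6), with 250 bases before and 50 after the gene start. These members had the largest changes in the WT set among those with a single listed start, and they moved in opposite directions. Capitals mark CACGTG.
Imp4, chr1:34439579-34439878, plus strand: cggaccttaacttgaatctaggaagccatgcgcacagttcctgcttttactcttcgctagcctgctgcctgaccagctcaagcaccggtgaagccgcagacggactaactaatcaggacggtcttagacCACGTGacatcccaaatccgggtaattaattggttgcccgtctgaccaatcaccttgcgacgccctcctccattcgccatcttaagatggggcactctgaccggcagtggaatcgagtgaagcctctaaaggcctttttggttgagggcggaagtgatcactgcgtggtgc
Nhp2, chr11:51619523-51619822, plus strand: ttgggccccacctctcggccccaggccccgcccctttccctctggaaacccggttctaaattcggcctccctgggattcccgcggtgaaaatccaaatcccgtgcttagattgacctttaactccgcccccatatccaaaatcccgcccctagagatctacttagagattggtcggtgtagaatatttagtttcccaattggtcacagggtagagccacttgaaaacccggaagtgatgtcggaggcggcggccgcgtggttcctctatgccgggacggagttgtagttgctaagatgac
Utp4, chr8:106893390-106893689, plus strand: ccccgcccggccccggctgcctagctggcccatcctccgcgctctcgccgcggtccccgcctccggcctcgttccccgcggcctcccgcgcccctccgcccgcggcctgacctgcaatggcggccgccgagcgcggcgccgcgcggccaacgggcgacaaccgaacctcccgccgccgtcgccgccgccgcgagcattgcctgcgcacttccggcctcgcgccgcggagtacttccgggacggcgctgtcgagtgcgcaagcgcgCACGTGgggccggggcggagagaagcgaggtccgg
Imp3, chr9:56937250-56937549, plus strand: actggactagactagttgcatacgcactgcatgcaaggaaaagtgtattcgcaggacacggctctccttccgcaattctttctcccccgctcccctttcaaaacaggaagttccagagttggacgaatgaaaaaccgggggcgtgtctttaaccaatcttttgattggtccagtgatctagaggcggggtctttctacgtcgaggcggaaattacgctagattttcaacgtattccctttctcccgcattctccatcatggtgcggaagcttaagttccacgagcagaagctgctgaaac
The E-box stood in the Imp4 and Utp4 windows and not in those of Nhp2 and Imp3. Promoters were listed for 34 of the 39 members, and 9 of them (26.5%) held CACGTG, which reads the same on both strands: Rrn3, Mybbp1a, Wdr43, Utp4, Utp20, Imp4, Tsr1, Nop2 and Pes1. The motif was in the windows of 8.1% of all 27025 listed genes. These include genes that were not tested here, whereas all members were, and the share among tested genes was not computed. The 9 members with the motif had a median log2 fold change of −0.22 averaged over the 7 WT-set crRNAs, and the 25 members without it −0.22. The medians with and without it were −0.06 and 0.10 with Rbfox3 crRNA 5, −0.10 and −0.04 with tdTomato crRNA 4, and −0.29 and −0.10 with tdTomato crRNA 7.

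The libraries corresponded to an estimated 10396457 to 16865416 counted reads in WT cells and 2199577 to 4297636 in the tdTomato line, and the least-read member value rested on about 227 and 63 reads. Sik3, Map2 and Mapt were at 11.9% to 50.7% of NT with their crRNAs and tdTomato at 16.4% and 14.6%, while Rbfox3 was at most 0.136 FPKM in any of its libraries, so that no knockdown could be measured. Of 5 markers of the sympathoadrenal lineage, Hand2, Gata3, Dbh and Isl1 were detected in every library, and Th was low and at 0 in 5 of the 9 libraries of the tdTomato line. The summed level of these markers was 161.9 to 179.5 FPKM in NT of the WT set and 204.0 to 276.6 FPKM with its 7 crRNAs, 158.6 to 172.0 against 200.7 to 219.0 FPKM in the N set, and overlapped in the tdTomato line. Hand2, with a median of 198 FPKM in WT cells, makes up most of this sum. In the mean of the 7 crRNAs Hand2 (0.44) and Isl1 (0.32) were higher, Gata3 was lower (−0.38) and Dbh was not called (0.13). The 9 markers of other cell types summed to 6.51 to 9.67 FPKM in WT cells and 10.4 to 16.4 FPKM in the tdTomato line. The part of these shifts in the results was not tested.

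In NT cells of the WT set the members spanned a wide range of levels. FPKM, the deposited unit, counts fragments per kilobase of transcript, scaled to library size, so that levels of different genes can be set side by side. The order of the genes depends on the lengths the authors divided by, which were not given in sources used here. Npm1, which encodes the nucleolar chaperone nucleophosmin, was highest at 298 ± 15.5 FPKM (SD, n = 3), followed by Nop58, a core protein of box C/D RNPs, at 181 ± 5.77 FPKM, Ncl, which encodes nucleolin, at 167 ± 4.49 FPKM, and Nhp2, a core protein of box H/ACA RNPs, at 159 ± 8.02 FPKM. The levels of Ncl and Nhp2 differed by less than the sum of their SDs. Lowest were Utp20, a very large protein of the small subunit processome, at 9.62 ± 0.609 FPKM, and Polr1b, the second-largest subunit of RNA polymerase I, at 10.2 ± 0.507 FPKM, again within the sum of their SDs. Npm1 was also first and Utp20 last in NT of the N set (333 ± 33.1 and 9.83 ± 1.07 FPKM) and of the tdTomato line (363 ± 17.0 and 12.8 ± 1.38 FPKM).

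Most ribosome biogenesis factors were lower with targeting crRNAs in the WT set. A member was counted as higher or lower at a Benjamini-Hochberg adjusted p under 0.05 over all tested genes in limma, and fold changes are on the log2(FPKM + 0.5) scale. With Sik3 crRNA 1, 29 of 39 members were lower (21.1% of all tested genes were) and 2 higher (23.6%). Sik3 crRNA 8 gave 27 lower (21.2%) and 3 higher (21.7%), Map2 crRNA 1 gave 28 lower (23.9%) and 2 higher (25.8%), and Mapt crRNA 4 gave 27 lower (16.7%) and 2 higher (21.8%). Fewer members passed with the other crRNAs. Map2 crRNA 3 gave 17 lower (13.4%) and 5 higher (19.8%), Mapt crRNA 6 gave 15 lower (14.6%) and 5 higher (22.2%), and Rbfox3 crRNA 3, whose target was near 0, gave 14 lower (13.4%) and 6 higher (19.1%). The median log2 fold change of the members ran from −0.29 with Map2 crRNA 1 to −0.11 with Rbfox3 crRNA 3, while the median of all tested genes lay between 0.01 and 0.05. These 7 comparisons share the 3 NT libraries, so they do not count as 7 separate results.

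**Figure D1:**
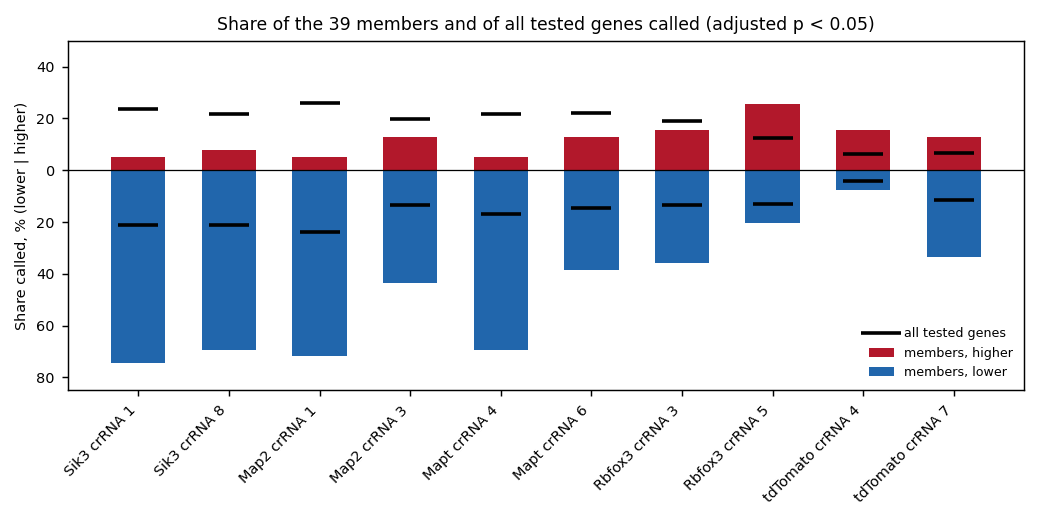
Share of the 39 members called higher (red bars, upward) or lower (blue bars, downward) for each crRNA against the NT libraries of its set, in percent, with the share of all tested genes as black marks. The blue bars are longest with Sik3 crRNA 1 (29 of 39 members) and shortest with tdTomato crRNA 4 (3 of 39), and the red bar is longest with Rbfox3 crRNA 5 (10 of 39).

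For the mean of the 7 crRNAs against NT, 25 members were lower (21.7% of all tested genes were) and 3 higher (28.2%), and 11 were not called. The median of the members was −0.22 and that of all genes 0.03. Of the members, 12 were lower with each of the 7 crRNAs and only Imp3 was higher with each. The share of all tested genes called with each of the 7 was not computed, so these counts have no background beside them. In 14 members all 21 crRNA libraries lay below all 3 NT libraries, which held for 7.64% of all tested genes, and in Imp3 alone they lay above (7.5%). The 28 called members kept their direction within the LDK libraries and within the LDL libraries, the series codes in the library names, although the LDL comparison rests on a single NT library. The calls were made from these same libraries, so this is not a separate result. The share of all called genes that kept their direction was not computed.

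**Figure D2:**
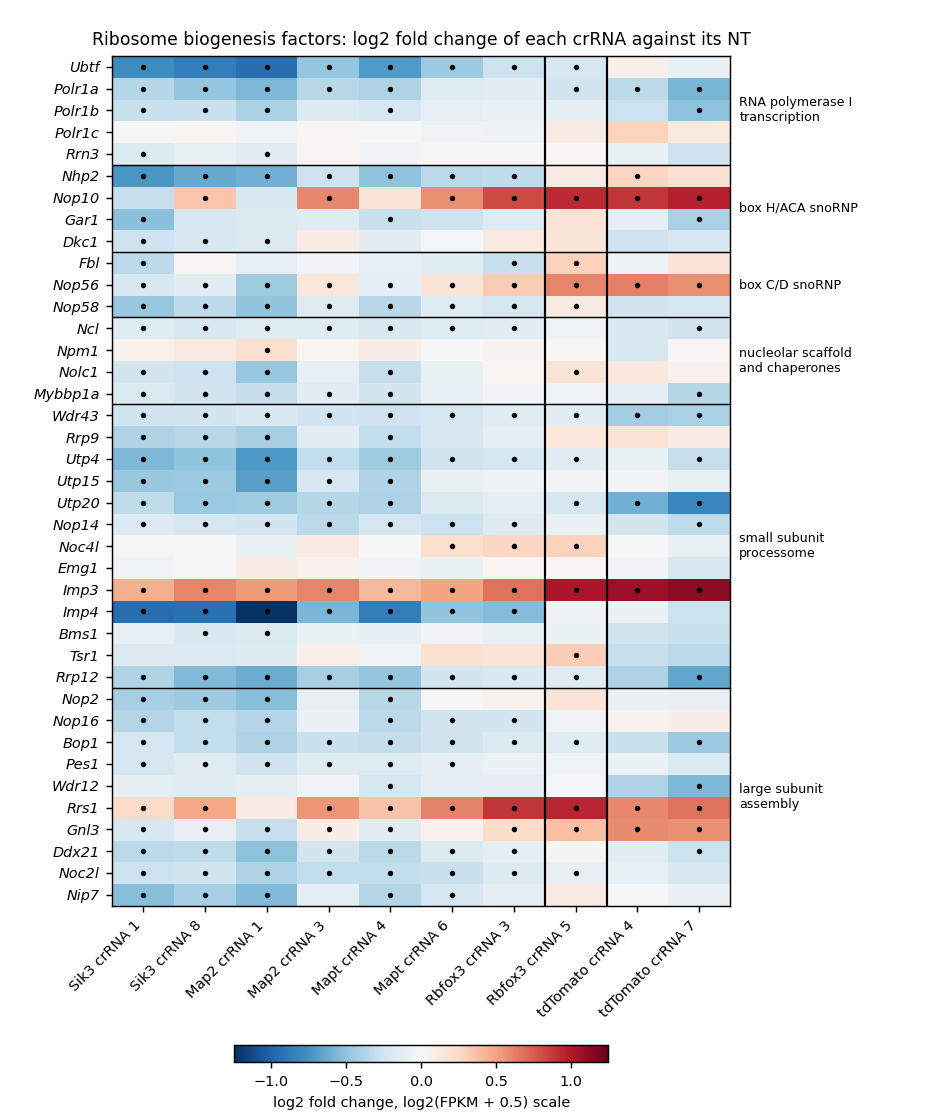
Log2 fold change on the log2(FPKM + 0.5) scale (color) of each member (rows, grouped by role) with each crRNA (columns) against the NT libraries of its set; dots mark an adjusted p under 0.05 in limma, and vertical lines separate the WT set, the N set and the tdTomato line. Imp4 and Ubtf are blue in all 7 columns of the WT set, Imp3 is red in all 10 columns, and Nop10, Nop56, Rrs1 and Gnl3 are red in the 3 columns on the right.

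Among the 5 genes of RNA polymerase I transcription, 3 fell in the mean of the 7 crRNAs and none rose. Ubtf, whose product UBF keeps rRNA genes open and helps to recruit the polymerase, was at 40.2, 41.0 and 42.5 FPKM in the NT libraries and at 21.1 to 35.4 FPKM (median 25.3) in the 21 crRNA libraries. The groups did not overlap, and Ubtf stood at 64.5% of NT (log2 fold change −0.64 ± 0.0311, SE; adjusted p = 1.26e-13 in limma). The lowest level was with Map2 crRNA 1, at 21.2 ± 0.125 FPKM, and the highest of the 7 with Rbfox3 crRNA 3, at 34.1 ± 1.16 FPKM (n = 3 each). Polr1a and Polr1b, the genes of the catalytic core subunits, fell by 0.35 and 0.22 on the log2 scale, with some overlap of the libraries. Polr1c, a subunit shared with RNA polymerase III, was at 99.1% of NT and Rrn3, which links the polymerase to its promoter, at 95.9%, and neither was called.

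The genes of the 4 box H/ACA proteins, whose RNPs pseudouridylate rRNA, did not move together although the proteins bind as a single complex. Nhp2 was at 169, 155 and 154 FPKM in NT and at 93.1 to 143 FPKM (median 110) with the crRNAs, without overlap (72.0% of NT, −0.48 ± 0.0509, adjusted p = 4.79e-08 in limma). Gar1, another core protein, fell by 0.25. Nop10, the smallest protein of the complex, was at 128, 129 and 118 FPKM in NT and at 69.4 to 232 FPKM (median 157) with the crRNAs, so the groups overlapped, and it was higher in the mean of the 7 (0.29 ± 0.0931, adjusted p = 0.0123 in limma). That call was lost without NT replicate 1. With Sik3 crRNA 1 its libraries held 129, 119 and 69.4 FPKM, where replicate 3 stands apart, and with Rbfox3 crRNA 3 they held 224, 232 and 206 FPKM. Dkc1, the pseudouridine synthase dyskerin, was not called (−0.08).

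Of the genes of the 3 box C/D proteins, whose RNPs methylate rRNA, only Nop58 was called in the mean of the 7. It was at 181, 175 and 187 FPKM in NT and at 125 to 172 FPKM (median 146) with the crRNAs (80.7% of NT, −0.31 ± 0.0304, adjusted p = 1.21e-08 in limma), and these ranges did not overlap. Its partner Nop56 differed in sign between crRNAs. It was lower with 4 crRNAs and higher with 3, from −0.44 with Map2 crRNA 1 to 0.32 with Rbfox3 crRNA 3, and the mean of the 7 was near 0 (−0.04). Fbl, the methyltransferase fibrillarin, had a mean of −0.14 that was not called.

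The genes of nucleolar scaffold proteins and chaperones changed little in the mean of the 7. Ncl was lower with each of the 7 crRNAs, in a narrow range from −0.19 to −0.13, and its 21 crRNA libraries, at 143 to 161 FPKM, all lay below the NT libraries at 167, 162 and 171 FPKM. Nolc1, a chaperone of small nucleolar RNPs, and Mybbp1a, a nucleolar Myb-binding protein, fell by 0.20 and 0.17 in that mean. Over the single crRNAs Nolc1 ran from −0.47 to 0.03. Npm1 was higher with Map2 crRNA 1 alone (0.20) and not called in the mean (0.07).

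The small subunit processome held both the largest fall and the largest rise, in a pair of proteins that join the U3 RNP with Mpp10. Imp4 was at 53.2, 53.7 and 52.1 FPKM in NT and at 21.5 to 38.9 FPKM (median 29.7) with the crRNAs. Every crRNA library lay below the NT range, and Imp4 stood at 58.1% of NT (−0.80 ± 0.0451, adjusted p = 1.75e-12 in limma). Imp3 was at 33.9, 30.7 and 27.9 FPKM in NT and at 38.5 to 50.3 FPKM (median 45.3) with the crRNAs. It stood at 146% of NT, again without overlap (0.54 ± 0.0739, adjusted p = 2.29e-06 in limma). Of the 13 members of this group, 9 were lower, 1 was higher and 3 were not called.

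Utp4, a WD-repeat protein of the subcomplex that binds nascent rRNA, was at 115, 112 and 116 FPKM in NT and at 66.9 to 101 FPKM (median 85.7) with the crRNAs (74.7% of NT, −0.43 ± 0.0284, adjusted p = 2.56e-11 in limma). Rrp12, a late small subunit factor of heat-repeat type, was at 18.0, 17.9 and 18.4 FPKM against 11.0 to 16.2 FPKM (median 13.2; −0.41 ± 0.0372, adjusted p = 4.06e-09 in limma). Utp20 was at 9.11, 10.3 and 9.47 FPKM against 6.40 to 8.95 FPKM (median 7.55; −0.33 ± 0.0556, adjusted p = 3.78e-05 in limma). All 3 genes were separated from NT in every library. Nop14, an early processome protein, was at 70.6, 70.7 and 72.3 FPKM in NT and at 53.0 to 66.6 FPKM (median 61.0) with the crRNAs, so it did not overlap with NT (−0.23 ± 0.0324, adjusted p = 3.08e-06 in limma). Wdr43 did not overlap either, at 85.8% of NT, whereas Utp15, Rrp9 and Bms1 fell by 0.33, 0.27 and 0.11 with overlapping libraries. Emg1, Noc4l and Tsr1 were not called, at 100%, 106% and 99.1% of NT.

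Of the 10 large subunit assembly factors 7 were lower, 1 was higher and 2 were not called. Ddx21, an RNA helicase of the nucleolus, was at 117, 126 and 125 FPKM in NT and at 83.6 to 115 FPKM (median 99.2) with the crRNAs (82.0% of NT, −0.29 ± 0.0296, adjusted p = 2.92e-08 in limma). Noc2l, part of a complex that escorts large subunit precursors, was at 124, 117 and 124 FPKM against 90.6 to 113 FPKM (median 98.6; −0.28 ± 0.0238, adjusted p = 1.57e-09 in limma). Neither overlapped with NT. Within the PeBoW complex, Bop1 (54.0, 54.9 and 56.8 FPKM against 40.1 to 52.5 FPKM, median 44.8) and Pes1 (81.3, 84.4 and 83.5 FPKM against 67.7 to 80.5 FPKM, median 74.3) fell without overlap, by 0.27 and 0.16, and Wdr12 was not called (−0.12). Nip7, Nop16 and Nop2 fell by 0.33, 0.28 and 0.26 with overlapping libraries.

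Rrs1, a factor that brings the 5S RNP into the large subunit, was the member of this group that rose. It was at 27.7, 25.7 and 29.0 FPKM in NT and at 28.2 to 54.1 FPKM (median 38.0) with the crRNAs, so the lowest crRNA libraries lay within the NT range. It was higher in the mean of the 7 (0.46 ± 0.0337, adjusted p = 1.26e-10 in limma) and with 6 of the 7 crRNAs, and Map2 crRNA 1 gave 28.9, 28.2 and 31.2 FPKM. Gnl3, which encodes the nucleolar GTPase nucleostemin, was lower with 4 crRNAs and higher with 2.

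**Figure D3:**
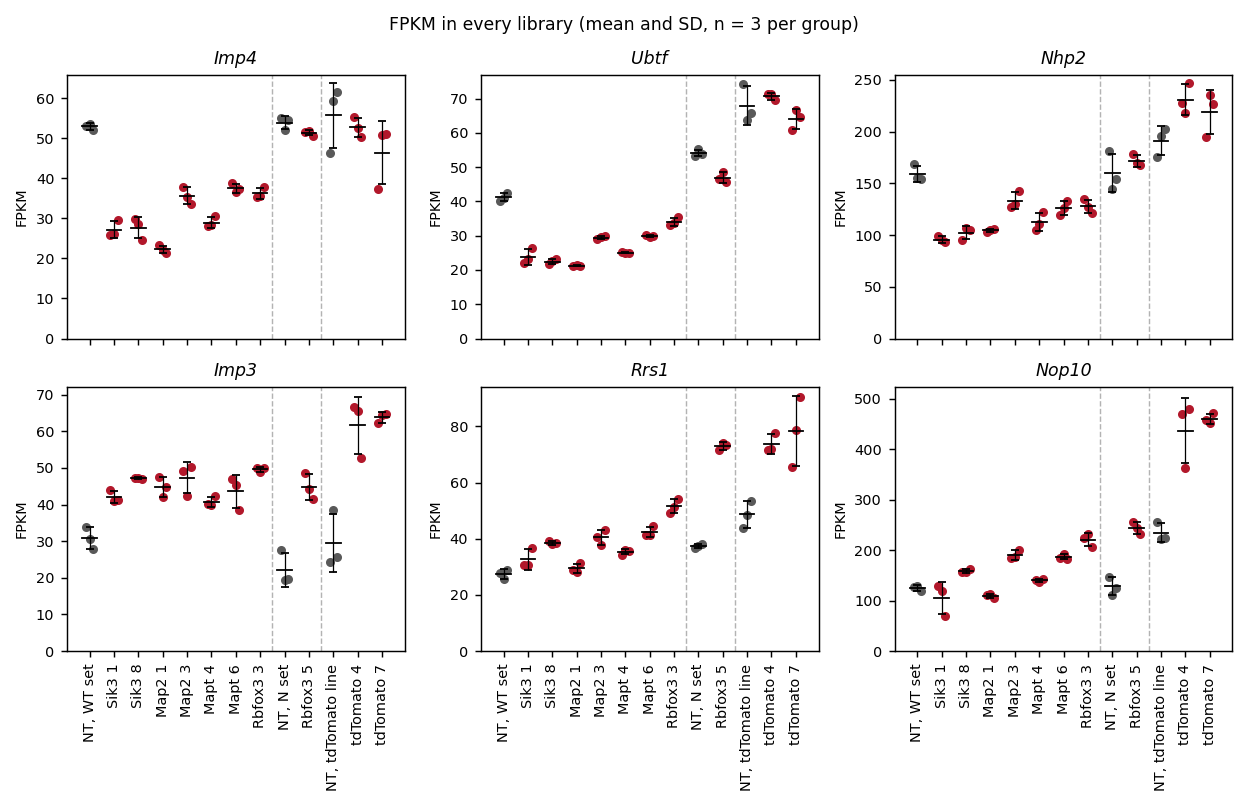
FPKM of 6 members in every library (points; gray for NT, red for targeting crRNAs), with the mean and SD of each group of 3, in the WT set, the N set and the tdTomato line from left to right. Imp4, Ubtf and Nhp2 fall below the NT points in the WT set, with Imp4 at 21.5 to 38.9 FPKM against 52.1 to 53.7 FPKM, and Imp3, Rrs1 and Nop10 rise in the N set and the tdTomato line.

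The 7 crRNAs differed from each other in 31 of the 39 members (43.5% of all tested genes did), so their mean hides differences in size. Nop10 spanned the widest range, from −0.29 with Sik3 crRNA 1 to 0.82 with Rbfox3 crRNA 3. Differences were tested between crRNAs against the same transcript. With Map2 crRNA 3, which left less Map2 than crRNA 1 (11.9% against 25.4% of NT), 26 members were higher than with crRNA 1 (21.3%) and 1 was lower (14.6%), with a median difference of 0.22 against 0.02 for all genes. Nop10 held 184, 186 and 201 FPKM with crRNA 3 and 110, 113 and 106 FPKM with crRNA 1 (difference 0.79 ± 0.123, adjusted p = 2.58e-05 in limma). Imp4 held 37.9, 35.5 and 33.6 FPKM against 23.3, 22.1 and 21.5 FPKM (0.67 ± 0.0597, adjusted p = 1.01e-08 in limma). The libraries of these crRNAs did not overlap in either gene. Npm1 was the member that was lower (−0.17).

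The Mapt crRNAs are shown because their sites overlap. In GRCm38 they pair with chr11:104329654-104329675 (crRNA 4) and chr11:104329649-104329670 (crRNA 6), in an untranslated region of a single annotated transcript of Mapt on the plus strand, and the capitals mark the 17 bases they share.
Mapt crRNA 4: cttagATAAAAGAAAAGGCAGA
Mapt crRNA 6: ATAAAAGAAAAGGCAGAggtcc
Mapt crRNA 6 left less Mapt than crRNA 4 (23.5% against 50.7% of NT), and 13 members were higher with it (4.48%) and 0 lower (2.98%) in limma, or 21 and 0 at an unadjusted p under 0.05. Nop10 was at 185, 193 and 183 FPKM with crRNA 6 and at 141, 137 and 142 FPKM with crRNA 4 (0.42 ± 0.123, adjusted p = 0.039 in limma). Imp4 was at 38.9, 36.7 and 37.2 FPKM against 28.1, 28.3 and 30.5 FPKM (0.37 ± 0.0597, adjusted p = 0.000544 in limma). The 13 members also included Ubtf, Nop56, Nop2, Utp15 and Rrs1. None of the 11 spacers, NT included, matched an annotated transcript of a member with fewer than 5 mismatches in 22 bases, and the closest was Mapt crRNA 6 with Nop16, which was lower with both Mapt crRNAs.

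Sik3 crRNA 8 also left less Sik3 than crRNA 1 (15.5% against 27.3% of NT). With Sik3 crRNA 8 against crRNA 1, 4 members were higher (1.52%) and 0 lower (1.09%) in limma, or 6 and 1 at an unadjusted p under 0.05. These calls depend on the fit, with 0 left when only the 6 libraries compared were fitted and 2 left without crRNA 1 replicate 3 or any replicate of crRNA 8. Nop10 (156, 157 and 164 FPKM against 129, 119 and 69.4 FPKM) led them with 0.64 ± 0.123 (adjusted p = 0.00679 in limma), and this value rests in part on the low replicate 3 of crRNA 1. Fbl was next (0.35 ± 0.0874, adjusted p = 0.0316 in limma), then Rrs1 and Nop58. The target tdTomato was at 14.6% of NT with crRNA 7 and at 16.4% with crRNA 4. With tdTomato crRNA 7 against crRNA 4, 0 members were higher (0.00844%) and 0 lower (0.0422%) in limma, and at an unadjusted p under 0.05 these counts were 1 and 6. A link between knockdown and member levels was not tested in any pair. The median difference of the members was −0.09 and that of all genes −0.08.

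**Figure D4:**
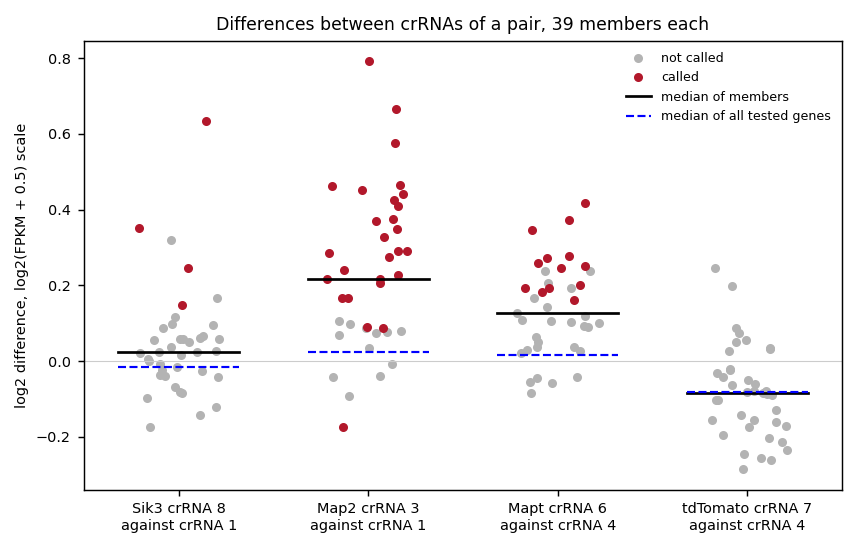
Log2 difference, on the log2(FPKM + 0.5) scale, between the crRNAs of each pair for the 39 members (points, spread sideways for visibility; red where adjusted p was under 0.05), with the median of the members (solid line) and of all tested genes (dashed line). The Map2 points lie mostly above 0 (26 called higher, 1 lower), the Mapt points to a lesser extent (13 and 0), and no tdTomato point is called.

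Rbfox3 crRNA 5 was compared with the separate NT libraries of the N set. Here 10 members were higher (12.6%) and 8 lower (13.1%), and the median was 0.01 against 0.00 for all genes. Imp3 was at 48.5, 44.1 and 41.6 FPKM against 27.5, 19.4 and 19.7 FPKM in NT (1.01 ± 0.0978, adjusted p = 5.56e-08 in limma). Rrs1 was at 71.4, 74.1 and 73.2 FPKM against 36.8, 37.4 and 38.2 FPKM (0.95 ± 0.0446, adjusted p = 8.67e-13 in limma). Nop10 (255, 243 and 232 FPKM against 148, 112 and 125 FPKM), Nop56 (268, 268 and 276 FPKM against 185, 171 and 178 FPKM) and Gnl3 (189, 195 and 202 FPKM against 152, 146 and 152 FPKM) were also higher, by 0.93, 0.61 and 0.38, and none of these 5 genes overlapped with NT. In total, 18 members were called, or 11 without Rbfox3 crRNA 5 replicate 1. A fit to only these 6 libraries called 9, of which 8 were higher and 1 lower, and the shares of all tested genes in that fit were not computed. Tsr1, Noc4l, Fbl, Nolc1 and Nop58 completed the members that rose, by 0.12 to 0.31. The genes of all 3 box C/D proteins were among those that rose.

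The members that fell with Rbfox3 crRNA 5 did so by small amounts. Polr1a was at 19.5, 21.3 and 20.7 FPKM against 22.1, 26.4 and 24.3 FPKM (−0.24 ± 0.0753, adjusted p = 0.0229 in limma), and Utp20 at 8.39, 8.02 and 8.84 FPKM against 8.61, 10.6 and 10.2 FPKM (−0.21 ± 0.0736, adjusted p = 0.0397 in limma). The Utp20 groups overlapped and both calls were lost when the fit held only these 6 libraries. Ubtf fell as well (46.5, 48.6 and 45.6 FPKM against 53.3, 55.2 and 54.0 FPKM; −0.21 ± 0.0411, adjusted p = 0.000657 in limma), as did Rrp12, Wdr43, Bop1, Utp4 and Noc2l, by 0.10 to 0.16. Imp4, the member that fell most in the WT set, was at 51.6, 52.0 and 50.7 FPKM against 55.1, 52.0 and 54.7 FPKM and was not called (−0.07).

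The change in the WT set and the change with Rbfox3 crRNA 5 were tested against each other, as these do not share NT libraries. The mean of the 7 crRNAs lay below Rbfox3 crRNA 5 in 23 members (10.4%) and above it in 0 (12.5%) in limma, or 27 and 0 at an unadjusted p under 0.05, with a median difference of −0.25 against 0.02 for all genes. The largest differences were those of Imp4 (−0.73 ± 0.0748, adjusted p = 3.56e-07 in limma) and Nop56 (−0.64 ± 0.038, adjusted p = 1.38e-10 in limma), then Nop10 (−0.64) and Nhp2 (−0.59). Of the 25 members that fell in the WT set, 8 also fell with Rbfox3 crRNA 5, 2 rose and 15 were not called, while the 3 that rose in the WT set rose in both. The same shares were not computed over all tested genes, so these counts have no background beside them. Imp3, Rrs1 and Nop10 rose less in the WT set, by 0.47, 0.49 and 0.64. The crRNA, the set and the NT libraries change together in this comparison and cannot be told apart.

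**Figure D5:**
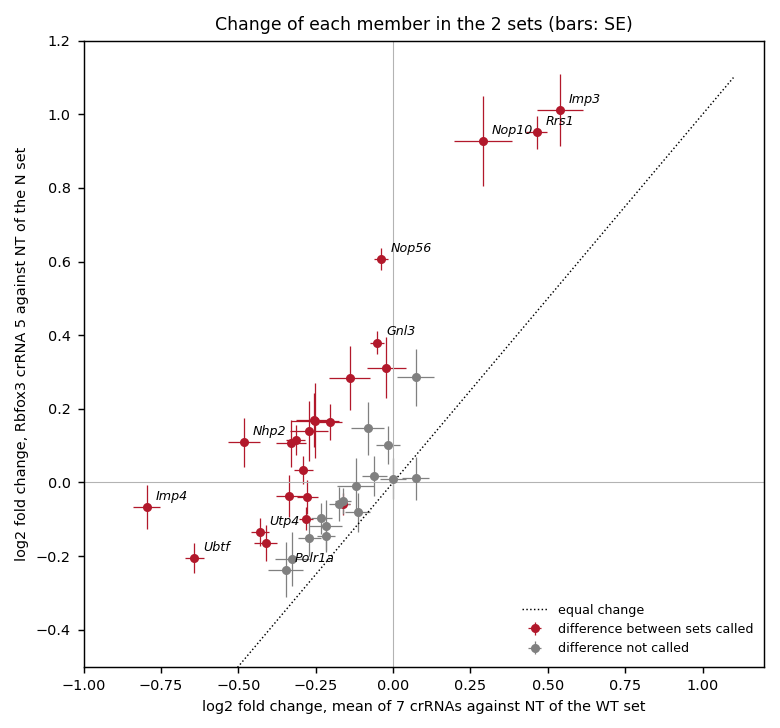
Log2 fold change of each member averaged over the 7 WT-set crRNAs (horizontal) and with Rbfox3 crRNA 5 in the N set (vertical), on the log2(FPKM + 0.5) scale, with SE bars and a dotted line of equal change; red points differ between the sets at an adjusted p under 0.05. Nearly all points lie above the dotted line, Imp4 farthest to the left at −0.80 and −0.07, and Imp3, Rrs1 and Nop10 at the upper right.

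The NT libraries of the 2 sets differed in these genes as well. In the fit to all libraries, 22 members were higher in NT of the N set than in NT of the WT set (26.5%) and 3 lower (19.9%), with a median difference of 0.16 against 0.04 for all genes. When only these 6 libraries were fitted, 13 were higher and 0 lower, and the shares of all tested genes in that fit were not computed. Polr1a was at 22.1, 26.4 and 24.3 FPKM against 13.5, 15.8 and 15.1 FPKM (0.69 ± 0.0799, adjusted p = 2.19e-07 in limma) and Polr1b at 14.8, 18.2 and 16.5 FPKM against 9.56, 10.4 and 10.4 FPKM (0.69 ± 0.0742, adjusted p = 7.84e-08 in limma). Imp3 (−0.46), Fbl (−0.26) and Bop1 (−0.19) were lower. Both sets carry the same NT crRNA, so differences of this size arose without a targeting crRNA. Imp4, Nhp2, Nop58 and Rrp12 were not called between the NT sets (−0.02 to 0.03), whereas Ubtf was higher in the N set (0.35). Of the 25 members that fell in the WT set, 14 were among those higher in NT of the N set. This share was like that of all members, 22 of 39.

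In the tdTomato line 6 members were higher (6.46%) and 3 lower (4.28%) with tdTomato crRNA 4, and 5 higher (6.72%) and 13 lower (11.3%) with crRNA 7. Imp3 was at 66.7, 65.7 and 52.7 FPKM with crRNA 4 and at 62.2, 64.4 and 64.8 FPKM with crRNA 7, against 24.4, 38.5 and 25.6 FPKM in NT (1.07 ± 0.161 and 1.13 ± 0.161, adjusted p = 0.00323 and 0.00267 in limma). Nop10 was at 470, 363 and 479 FPKM and 459, 452 and 472 FPKM against 256, 223 and 225 FPKM (0.89 ± 0.0942 and 0.98 ± 0.0942, adjusted p = 0.000577 and 0.00042 in limma). Neither gene overlapped with NT. Rrs1 rose by 0.60 and 0.67, Nop56 by 0.63 and 0.59 and Gnl3 by 0.59 and 0.57, so that 5 members rose with both crRNAs. The share of all tested genes that rose with both was not computed. Without the series term Nop56 and Gnl3 were not called with either crRNA, and Imp3, Rrs1 and Nop10 still were.

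Utp20 was at 8.39, 8.39 and 7.98 FPKM with crRNA 4 and 6.02, 7.30 and 7.95 FPKM with crRNA 7, against 11.6, 14.4 and 12.6 FPKM in NT (−0.60 ± 0.129 and −0.82 ± 0.129, adjusted p = 0.0168 and 0.00399 in limma), again without overlap. Wdr43 was at 53.3, 68.5 and 58.9 FPKM with crRNA 4 against 80.0, 81.6 and 82.7 FPKM in NT (−0.44 ± 0.0948, adjusted p = 0.0177 in limma), and Rrp12 at 18.2, 21.6 and 23.5 FPKM with crRNA 7 against 35.9, 32.8 and 30.9 FPKM (−0.65 ± 0.112, adjusted p = 0.00581 in limma). Polr1a also fell with both crRNAs (−0.33 and −0.58). Imp4 was not called with either crRNA (−0.07 and −0.26), nor was Ubtf (0.06 and −0.08). The median of all genes was itself at −0.13 with crRNA 7, and when the libraries were rescaled to remove that shift, 5 members were lower and 6 higher. Without the series term 3 members were called with crRNA 4 and 6 with crRNA 7. The counts were 5 without crRNA 4 replicate 3, and 11 for crRNA 7 without its replicate 1 or NT replicate 1 or 2. Shares of all tested genes were not computed for the rescaled values or these other fits.

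Imp3, Rrs1 and Nop10, the members that rose in all 4 settings (the mean of the 7, Rbfox3 crRNA 5 and both tdTomato crRNAs), have 1 or 2 exons. The share of all tested genes that rose in all 4 was not computed, nor was the change of other genes with 1 or 2 exons. Imp3 and Rrs1 have a single exon in the GENCODE M21 annotation, with 924 and 2048 bases, and are the only single-exon members, and Nop10 has 2 exons with 1109 bases. Lengths here join the exons of all annotated transcripts of a gene, so they can exceed that of any single mRNA. A gene that is long by this measure may thus have a short mRNA. In the mean of the 7, short length was not particular to members that rose. Of the 6 members of at most 2100 bases, the other 3, Nhp2, Gar1 and Nop16, fell there (−0.48, −0.25 and −0.28). With Rbfox3 crRNA 5 none of these 3 was called. With tdTomato crRNA 4, Nhp2 was at 228, 218 and 248 FPKM against 175, 196 and 203 FPKM in NT. Gar1 was at 51.6, 57.6 and 58.2 FPKM against 56.4, 65.3 and 60.0 FPKM. Over the 39 members Spearman's rho between this joined exon length and the log2 fold change was −0.34 in the mean of the 7, −0.48 with Rbfox3 crRNA 5, −0.51 with tdTomato crRNA 4 and −0.53 with tdTomato crRNA 7. Over all genes with a length, which are not independent and share these libraries, rho was 0.11, −0.10, −0.42 and −0.38. Tested genes of at most 2100 bases had a median log2 fold change of 0.01 in the mean of the 7, 0.09 with Rbfox3 crRNA 5, and 0.22 and 0.16 with the tdTomato crRNAs. Nop56 and Gnl3 are longer by this measure, with 4099 and 6101 bases, and are among 7 members that hold snoRNA genes on their own strand. In Gnl3 the joined exons overlap 3 snoRNA genes, among them Snord19 and Snord69, and in Nop56 they overlap 4, among them Snord57. All of these lie inside the gene named. Of those 7, 4 rose and 1 fell with Rbfox3 crRNA 5, against 6 and 7 of the 32 other members, and 0 rose and 3 fell in the mean of the 7, against 3 and 22. With tdTomato crRNA 4 the counts were 2 and 1 against 4 and 2, and with crRNA 7 they were 2 and 2 against 3 and 11. The exons of 18 members overlap those of another annotated gene, 16 of them of a gene on the opposite strand, among them Imp4, Nhp2, Nop56 and Gnl3, and reads from such genes cannot be told apart here since the strand setting is not known.

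The wider pathway was followed through further genes that are not among the 39, and the counts stand beside the 21.7% of all tested genes that were lower and the 28.2% that were higher in the mean of the 7. In the mean of the 7 crRNAs 26 of 39 further small subunit processome genes were lower and 3 higher (median −0.16), led by Rrp7a, a late processome protein (−0.66), and Bysl, which encodes bystin (−0.52). Of 50 further large subunit assembly genes 30 were lower and 2 higher (median −0.18), led by the methyltransferase gene Ftsj3 (−0.49) and by Nol12 (−0.48). Of 11 tested snoRNP assembly genes 5 were lower and 1 higher, with Pih1d1 (−0.44) and Ruvbl2 (−0.22) of the R2TP chaperone system in front.

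Other branches of the pathway were mixed in the same comparison, and several counts were near those shares of all genes, such as 4 of 17 and 2 of 10 lower. Among 25 tested exosome and pre-rRNA nuclease genes 9 were lower and 3 higher, with Exosc2 at −0.42 and Exosc6, another exosome subunit, at 0.49. Among 17 tested further rRNA transcription genes 4 were lower and 3 higher, the last with the shared polymerase subunits Polr2k (0.41) and Polr1d (0.31). Of 10 rRNA base modification genes 3 were lower and 1 higher, with Nsun5, a cytosine methyltransferase of large subunit rRNA, at −0.30 and Trmt112, a partner of several methyltransferases, at 0.34. In the Myc network 2 of 10 were lower and 4 higher, and the largest changes were in Mxd1 (−0.49), a Myc antagonist, and Max (−0.26), the Myc partner. Myc itself was at 0.09 (adjusted p = 0.0254 in limma) and Mycn at 0.26 (adjusted p = 0.000113 in limma).

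With Rbfox3 crRNA 5 the further lists lay near 0, at medians of −0.05 for the small subunit processome (6 higher, 8 lower of 39) and 0.01 for large subunit assembly (7 higher, 7 lower of 50), where 12.6% of all tested genes were higher and 13.1% lower. With tdTomato crRNA 4 these lists gave 1 higher and 3 lower, and 1 higher and 7 lower, where 6.46% of all tested genes were higher and 4.28% lower. With tdTomato crRNA 7 they gave 1 higher and 11 lower (median −0.27), and 1 higher and 12 lower (median −0.24), where 6.72% of all tested genes were higher and 11.3% lower and their median was −0.13.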

How the data were processed

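RNA was extracted 48 h after transfection and sequenced as paired-end poly(A) libraries. The authors trimmed reads with Trim Galore, aligned them with Subread to mm10 and counted them per gene with featureCounts; tool versions, the annotation and the strand setting were not given in sources used here. The deposited values are FPKM, made by the authors from those counts, in a table for WT cells and another for the tdTomato line, which were never tested against each other.

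Genes with a mean of at least 1 FPKM in a table were tested on log2(FPKM + 0.5) with limma 3.58.1 under R 4.3.3 (trended variance, 2-sided, Benjamini-Hochberg over all tested genes). The fit held all libraries of a table, with a term for each group and for the library series (LDK, LDL, LDM). Because the values are not whole counts, no count model was fitted. Reads per library were estimated from the steps of low FPKM values. The fit was tested on simulated data with 200 changed genes.

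The members and gene lists were chosen with earlier results of these data known. All members may be named. Values per library are given for up to 12 members called in the mean of the 7 crRNAs with all 21 libraries on the same side of NT, for the 2 largest changes in each direction in the other comparisons, and for Rrs1, Nop10, Nop56, Gnl3, Ncl, Pes1 and a few further members that were chosen after their values were seen. From each pathway list the 2 largest called changes are named, and Myc and Mycn were added after their values were seen. Exon structure came from GENCODE M21 and promoters from RefSeq, both on GRCm38; crRNA spacers came from the study's own sequence list. Alternatives covered the pseudocount, the filter, the series term, rescaling, the libraries in the fit, all 6 NT libraries, a replicate block and leaving out each library. Some listed lineage markers are not reported here.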

Additional observations from a re-analysis of the deposited data

Results flagged for a closer look

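In 23 members the log2 fold change of the WT set, averaged over its 7 crRNAs, was lower than that of Rbfox3 crRNA 5 in the N set, at an adjusted p under 0.05 in limma for the difference itself. The differences were −0.73 for Imp4, −0.64 for Nop56, −0.64 for Nop10, −0.59 for Nhp2, −0.49 for Rrs1, −0.47 for Imp3, −0.44 for Ubtf, −0.44 for Nip7, −0.43 for Gnl3, −0.43 for Nop58, −0.43 for Nop2, −0.42 for Fbl, −0.42 for Gar1 and −0.41 for Rrp9. They were smaller for Nolc1 (−0.37), Tsr1 (−0.33), Ddx21 (−0.32), Utp15 (−0.30), Utp4 (−0.30), Rrp12 (−0.25), Nop16 (−0.24), Noc2l (−0.18) and Ncl (−0.10). In Imp3, Rrs1 and Nop10 both changes were upward and differed in size, and in Nop58 and Nolc1 they went in opposite directions, each past the threshold. The set, its NT libraries and the crRNA change together in these differences and cannot be told apart.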

How the results depend on the processing

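Over the members, comparisons and alternatives together, 11204 results kept their side of the threshold, 385 lost a call and 149 gained one. Direction was compared only for results that were called before the change in processing. Among those, the exception in direction was Gnl3 with Map2 crRNA 3, which went from 0.08 to −0.062 (not called) with all 6 NT libraries as the reference. That reference also raised the members called with Mapt crRNA 6 from 20 to 31. Rescaling changed the count with tdTomato crRNA 7 from 18 to 11, and leaving out the series term gave 3 with tdTomato crRNA 4 and 6 with crRNA 7. A fit to only the groups compared gave 9 with Rbfox3 crRNA 5 in place of 18, 13 between the NT sets in place of 25 and 0 between the Sik3 crRNAs in place of 4, for which no filter on low values gave 2. Leaving out 1 library at a time gave 26 to 30 members for the mean of the 7 crRNAs and 20 to 25 for the difference between the sets. The range was 2 to 4 for the Sik3 pair (2 without Sik3 crRNA 1 replicate 3 or any replicate of crRNA 8) and 11 to 17 with Rbfox3 crRNA 5 (11 without its replicate 1). It was 5 to 7 with tdTomato crRNA 4 (5 without its replicate 3) and 11 to 15 with tdTomato crRNA 7 (11 without NT replicate 1 or 2 or crRNA 7 replicate 1), and 18 to 25 for the Map2 and 9 to 12 for the Mapt pair. Where a group was left with 1 library in its fit, that library was assumed to vary like the other groups. In the tdTomato line the calls of Nop56 and Gnl3 needed the series term. The cause of these changes was not tested, and shares of all tested genes were not computed for the alternatives.

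Libraries were placed in blocks by the number in their names, with unnumbered libraries in a block of their own. Deviations from the group means correlated within blocks with medians of 0.025 to 0.163 in the WT set, 0.003 to 0.054 in the N set and 0.099 to 0.231 in the tdTomato line. The unnumbered LDL block of the WT set had a median of 0.163, and of −0.081 and −0.1 with the other blocks. For the LDM block of the tdTomato line these medians were 0.231, −0.141 and −0.135. There the 3 pairs of the LDM libraries were at 0.218 to 0.292, but the other blocks had pairs at 0.075 and 0.078, below the 0.1 asked of every pair. With the replicate block, 28 members were called for the mean of the 7 crRNAs, the same 28 as without it, 26 for the Map2 pair, 18 with Rbfox3 crRNA 5, 7 with tdTomato crRNA 4 and 16 with crRNA 7. About 63 reads behind the least-read member value limit what the tdTomato line can show.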
